A study of Mus musculus with 2 samples.

Results

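The 46 genes described here are fatty acid oxidation genes and other responsive targets of PPARα in mouse liver. They were chosen by symbol as genes of mitochondrial and peroxisomal β-oxidation, ketone body production and other PPARα responses, without the cytochrome P450 genes, by a rule that uses no measured value. All 46 of 46 were found among the 24054 genes of the deposited TPM table, where TPM is a gene's share of the transcript pool scaled to transcript length. All 46 averaged 1 TPM or more over the 2 libraries, which 11623 genes of the table reached. Liver RNA was compared between Pgrmc1 KO mice (Pgrmc1 -/Y) and WT mice, all male, 8 to 12 weeks old and labelled C57BL/6. The methods give C57BL/6N for the floxed line. The KO allele was made by crossing mice with loxP sites around exons 1 and 2 of the X-linked Pgrmc1 gene to Sox2-Cre mice, so the deletion was present in the whole body and not in hepatocytes alone. PGRMC1 is a heme-binding membrane protein that associates with cytochromes P450. For each genotype 2.5 μg of RNA from each of 5 mice was combined, so KO and WT are each represented by 1 sequenced library. The feeding state and hour of harvest of these livers were not given in the sources used here. Because the mice were pooled, the spread between mice was not measured, no difference below has a replicate check, and no p-value was computed.

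Fatty acids enter the hepatocyte through membrane transporters, are bound by FABP1 and are activated to acyl-CoA by acyl-CoA synthetases. Long chains reach the mitochondrial matrix through the carnitine shuttle, and there repeated rounds of dehydrogenation, hydration, oxidation and thiolysis release acetyl-CoA for the citric acid cycle or for ketone bodies. Peroxisomes shorten very long chains first. PPARα is the fatty acid-sensing nuclear receptor that, with its partner RXR, drives many of these genes in liver, most strongly in fasting.

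PPARα and RXR bind a direct repeat of the letters AGGTCA with 1 base between the copies, called a DR1. RefSeq promoter windows (assembly GRCm38.p6, 250 bases before to 50 bases after a listed transcription start) were given for 39 of the 46 genes, 45 windows in all. A listed start need not be the outermost one of its gene. The motif AGGTCANAGGTCA was searched on both strands with at most 2 mismatches over its fixed letters. A match was present for 7 of the 39 genes (17.9%), beside 1190 of 27025 genes with a window (4.40%) and 344 of the 8722 of them averaging 1 TPM or more (3.94%). A match with at most 1 mismatch was present for 2 of the 39 genes (5.13%) and for 174 of the 27025 (0.644%). These are matches of letters, not measured binding. The 7 matches are shown as what this search found, and a match does not tell which receptor, if any, binds there. The 13 bases of the match are in capitals and 8 flanking bases on each side in lower case. Each is read on the strand of the match.
Acot12, chr13:91741411-91741423, minus strand, 1 mismatch: tgcttaggAGGTGAGAGGTCAgggtccta
Fabp1, chr6:71199812-71199824, minus strand, 1 mismatch: tcagatatAGGCCATAGGTCAgtgattgt
Acot4, chr12:84038366-84038378, minus strand, 2 mismatches: gcacagacCGGCCAAAGGTCAtgcttcgg
Cd36, chr5:17835947-17835959, plus strand, 2 mismatches: atccaagtAAGTCAGAGGCCAgagaacca
Creb3l3, chr10:81092788-81092800, minus strand, 2 mismatches: ctgtaagtAGGGGAGAGGTCAcacagacc
Echs1, chr7:140116492-140116504, minus strand, 2 mismatches: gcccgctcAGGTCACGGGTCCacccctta
Etfa, chr9:55512308-55512320, plus strand, 2 mismatches: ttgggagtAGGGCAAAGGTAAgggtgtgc

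The matches of Fabp1, Echs1 and Etfa lie before the outermost RefSeq start of their genes, and that of Fabp1 lies 67 to 55 bases before it. The other 4 lie inside the RefSeq span of their genes, before a listed start that is not the outermost one. That of Acot12 lies 110 to 98 bases before such a start, and that of Acot4 ends at the base next to one. The members with a match changed between the libraries by -0.64 (Cd36) to 0.22 (Acot4) on the log2 scale defined below, with a median of 0.00. The 32 members with a window but no match ran from -0.73 to 0.50, with a median of 0.06.

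The labels were checked first with Pgrmc1 itself, which was at 0.68 TPM in KO against 949.49 TPM in WT. Reads were estimated from a second deposited table, which covers 16318 genes. They came to 22086692 in KO and 29710419 in WT. The liver identity of both pools was plain from Alb, at 47242 TPM in KO against 49729 TPM in WT. Of the skeletal muscle and lymphocyte markers searched, none reached a mean of 1 TPM, and of 6 adipocyte markers only Cfd did, at 5.46 TPM in KO against 1.55 TPM in WT. Each difference is expressed as log2((KO TPM + 1)/(WT TPM + 1)), called the change, which understates the difference of genes at a few TPM. The interval given with a change is the 95% Clopper-Pearson interval of the log2 ratio of the authors' means, KO over WT, from estimated reads. It covers counting error only and carries no pseudocount, so for low genes it sits farther from 0 than the change. The means also carry a scale of their own. Acaa2, an abundant mitochondrial gene, had a change of 0.06 and a log2 ratio of means of 0.08. Whether an interval that ends near 0 holds 0 therefore depends on that scale. In bulk liver, fewer cells of a type and less RNA per cell cannot be told apart.

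The fatty acid oxidation genes were close to equal in the 2 libraries. Their median change was 0.05, beside -0.01 over all 11623 genes averaging 1 TPM or more. The TPM columns of the 2 libraries do not sum to the same total, and the log2 ratio of their totals, KO over WT, was 0.02. Of the 46 genes, 33 (71.7%) were higher in KO, beside 45.8% of all genes, and 33 (71.7%) changed by at most 0.1 in either direction, beside 53.7% of all genes. A fold of at least 1.4 was reached by 1 member, Pdk4, beside 1.21% of all genes, and a fold of at most 0.6 by 0 members, beside 0.301%. With a pseudocount of 0.1 TPM, 2 members were at or above the upper fold and 1 was at or below the lower. In that setting 280 of all 11623 genes were at or above the upper fold and 70 at or below the lower. The summed level of the 46 genes was 24640 TPM in KO against 24711 TPM in WT, which is 2.45% of all TPM in KO and 2.48% in WT. Fabp1 alone held 65.6% of that sum in KO and 67.2% in WT. Without Fabp1 the sums were 8472 and 8107 TPM, a ratio of 1.05.

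**Figure D1:**
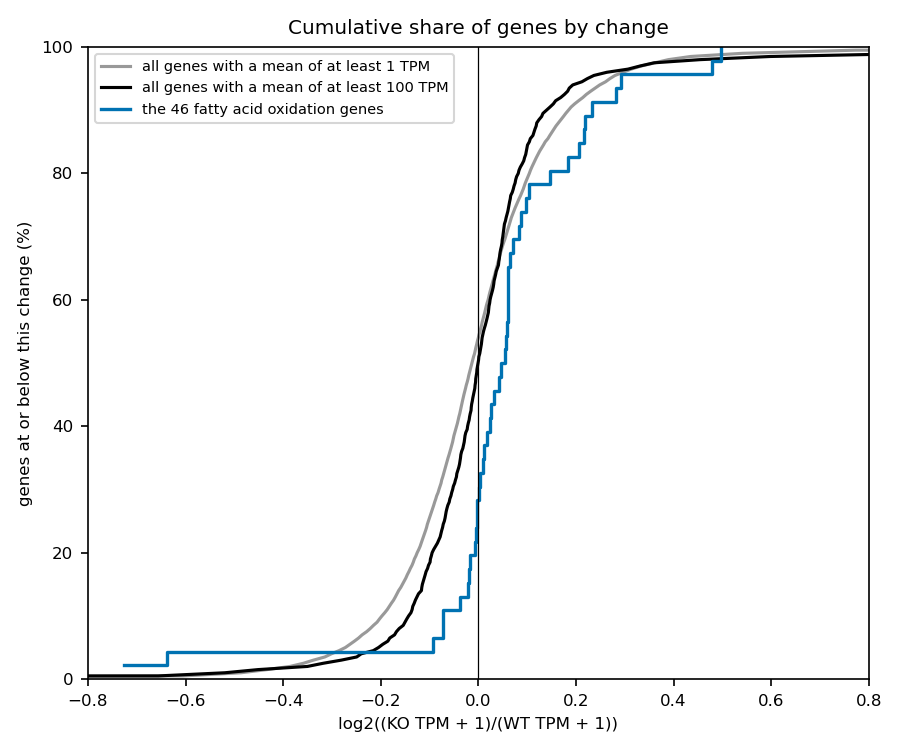
Cumulative share of genes (vertical axis, percent) at or below each change (horizontal axis, log2((KO TPM + 1)/(WT TPM + 1))), for the 46 fatty acid oxidation genes (blue steps), all genes averaging 1 TPM or more (gray) and all genes averaging 100 TPM or more (black). The blue steps cross the middle of the axis at 0.05, to the right of the gray line at -0.01 and the black line at -0.00, and they rise steeply because 33 of the 46 genes lie within 0.1 of no change.

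These genes are abundant in liver, with a median of 140 TPM beside 11.2 TPM for all genes. Among genes averaging 100 TPM or more, the share above 0 was 18 of 28 (64.3%) for members and 49.9% for all 1013 genes. The share that changed by at most 0.1 was 25 of 28 (89.3%) for members and 65.8% for all genes at that level. The counting interval lay above 0 for 18 of the 46 members, beside 11.7% of all genes measured in both tables, and below 0 for 4, beside 13.4%. Since intervals narrow with reads, the same was counted among genes of at least 100 TPM. There the interval lay above 0 for 11 of 28 members, beside 35% of all such genes, and below 0 for 2 of 28, beside 24.1%. For the other 24 of the 46 members the interval held 0. The spread followed the level. Changes ran from -0.09 (Angptl4) to 0.23 (Crot) among the 28 members of at least 100 TPM, from -0.64 (Cd36) to 0.29 (Acot1) among the 11 members of 10 to 100 TPM, and from -0.73 (Fgf21) to 0.50 (Pdk4) among the 7 members below 10 TPM.

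**Figure D2:**
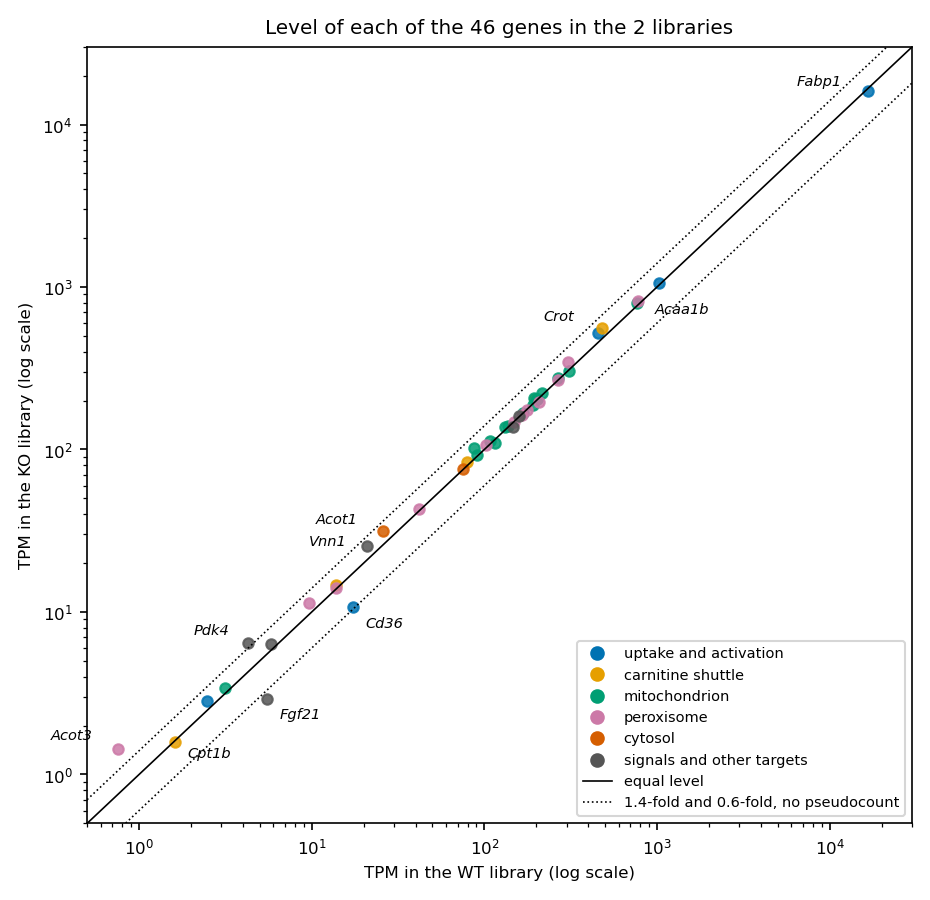
TPM of each of the 46 genes in the WT library (horizontal axis, log scale) and in the KO library (vertical axis, log scale), colored by place in the pathway, with a solid line for equal levels and dotted lines at 1.4-fold and 0.6-fold without a pseudocount. Most genes lie on the solid line from about 1 TPM (Cpt1b, 1.59 in KO and 1.62 in WT) to Fabp1 (16168 in KO and 16604 in WT). Pdk4 and Acot3 lie above the upper dotted line and Fgf21 below the lower one, all with under 10 TPM.

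Of the 5 genes of uptake and activation, 3 were higher in KO and 2 were lower, with a median change of 0.06. Cd36, the membrane fatty acid translocase (chromosome 5, 17781690 to 17888959), was at 10.74 TPM in KO against 17.28 TPM in WT. Its change of -0.64 (interval -0.84 to -0.53, from 504 and 1092 reads) was the lowest of the group. An interval below 0 was found for 13.4% of all genes averaging 1 TPM or more for which reads were estimated. CD36 is also made by endothelial cells and macrophages of the liver. All 7 of 7 endothelial markers were lower in KO (summed level 156 TPM in KO against 171 TPM in WT), led by Lyve1 at -0.60, and all 7 of 7 Kupffer cell markers found were higher (summed level 221.3 TPM in KO against 195 TPM in WT). The part of either cell type in the Cd36 difference was not tested.

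Acsl1, the main long-chain acyl-CoA synthetase of liver, was the highest of the group, at 524.76 TPM in KO against 454.69 TPM in WT, a change of 0.21 (interval 0.20 to 0.24). Fabp1, the liver fatty acid binding protein, was the most abundant of all 46 genes, at 16168 TPM in KO against 16604 TPM in WT. Its change was -0.04, while the ratio of the authors' means was 0.00 on the log2 scale (interval -0.01 to 0.02), so its direction differed between the deposited tables. Slc27a2, which both imports fatty acids and activates very long chains, was at 1064 TPM in KO against 1024 TPM in WT, a change of 0.06. Slc27a1, a transporter better known from muscle and fat, was at 2.84 and 2.47 TPM and its interval held 0. The summed level of the group was 17770 TPM in KO against 18102 TPM in WT, a ratio of 0.982. Without Fabp1 the ratio was 1.07.

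The carnitine shuttle group had the highest ratio of summed levels of the 6 groups, at 868 TPM in KO against 771 TPM in WT, a ratio of 1.13. Most of that came from Crot, the peroxisomal carnitine octanoyltransferase that hands shortened chains on to mitochondria (chromosome 5, 8966033 to 8997146). Crot was at 563.34 TPM in KO against 479.50 TPM in WT, a change of 0.23 (interval 0.22 to 0.27, from 20914 and 23828 reads). It made up 64.9% of the group's TPM in KO and 62.2% in WT, and without it the ratio of the sums was 1.04. Cpt1a, the liver form of the outer-membrane palmitoyltransferase and the entry step of mitochondrial oxidation, was at 204.80 TPM in KO against 196.30 TPM in WT, a change of 0.06 (interval 0.04 to 0.11). Cpt2, its partner on the inner membrane, also changed by 0.06. Cpt1b, the muscle form, was the lowest of the group and barely present, at 1.59 TPM in KO against 1.62 TPM in WT (change -0.02, interval -0.56 to 0.40). Of its 100-base transcript windows 75.6% also occur in Gm44502, an overlapping gene model, so its reads are uncertain. Whether the authors' reference held Gm44502 was not checked. The sum of Cpt1a and Cpt1b was 206.39 TPM in KO against 197.92 TPM in WT. Crat, which moves acetyl groups, was at 14.73 TPM in KO against 13.85 TPM in WT, and its interval held 0.

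Of the 16 mitochondrial genes, 13 were higher in KO and 3 lower, with a median change of 0.04 and a ratio of summed levels of 1.03 (3268 TPM in KO against 3183 TPM in WT). The 4 acyl-CoA dehydrogenases, which open each round of oxidation for chains of different length, summed to 702.85 TPM in KO against 691.97 TPM in WT. Among them Acads (0.06) and Acadvl (0.06) had intervals just above 0, and Acadm (0.01) held 0. Acadl, the long-chain enzyme, was the lowest mitochondrial gene, at 110.24 TPM in KO against 115.96 TPM in WT, a change of -0.07 (interval -0.13 to 0.01). Acaa2, the thiolase of the final step and the most abundant gene of the group, was at 794.24 TPM in KO against 761.00 TPM in WT, a change of 0.06 (interval 0.05 to 0.11). Bdh1 stood apart from the other mitochondrial genes. It makes β-hydroxybutyrate in the last step of ketone body production and was at 101.50 TPM in KO against 87.05 TPM in WT, a change of 0.22 (interval 0.17 to 0.29). Next to it came Hadh, the hydroxyacyl-CoA dehydrogenase, at 207.59 TPM in KO against 193.85 TPM in WT, a change of 0.10. The electron transfer flavoprotein genes, which pass electrons from the dehydrogenases to the respiratory chain, changed by 0.05 (Etfa), -0.02 (Etfb) and 0.01 (Etfdh). Etfb shares 35.8% of its 100-base windows with the gene model Gm45233, so its value is uncertain. That is a share of windows, not of reads, and whether the authors' reference held this model was not checked. Echs1, the short-chain hydratase, changed by -0.02, and Eci1 and Decr1, which prepare unsaturated chains, by 0.06 and 0.03 with intervals that held 0.

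Hadha and Hadhb encode the α and β subunits of the trifunctional protein, which carries out the later steps for long chains. Their levels were 140.03 TPM in KO against 137.65 TPM in WT for Hadha and 167.76 and 167.29 TPM for Hadhb, changes of 0.02 and 0.00, and both intervals held 0. The genes lie head to head on chromosome 5 of GRCm38.p6 with 272 bases between them (30154981 to 30155252), and their RefSeq promoter windows overlap over 228 bases. The overlap is shown because both genes are read outward from it, with its 15 CG dinucleotides in capitals and on the plus strand, the strand of Hadhb. Its GC content was 57.0%. No DR1 match was found in the 2 windows.
Hadha and Hadhb, chr5:30155003-30155230: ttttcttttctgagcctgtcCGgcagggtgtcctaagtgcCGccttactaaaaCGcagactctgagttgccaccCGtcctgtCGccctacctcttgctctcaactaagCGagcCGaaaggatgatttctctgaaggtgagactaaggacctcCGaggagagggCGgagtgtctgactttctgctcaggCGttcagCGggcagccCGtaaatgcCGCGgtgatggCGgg

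Of the 12 peroxisomal genes, 7 were higher in KO and 5 lower, with a median change of 0.03 and a ratio of summed levels of 1.03 (2288 TPM in KO against 2211 TPM in WT). The bifunctional enzymes, which hydrate and oxidize the chain, were level: Ehhadh was at 148.08 TPM in KO against 148.77 TPM in WT, and Hsd17b4 at 266.12 and 266.62 TPM. Decr2 and Eci2, for unsaturated chains, were level too, with changes of -0.01 and -0.00. The thiolases that close each round in peroxisomes are encoded by closely related copies on chromosome 9. Acaa1b, the most abundant peroxisomal gene, was at 817.49 TPM in KO against 778.01 TPM in WT, a change of 0.07 (interval 0.06 to 0.12), and Acaa1a changed by 0.06. Since 19.3% of the 100-base windows of Acaa1b transcripts also occur in Acaa1a, their split is uncertain, and their sum was 923.81 TPM in KO against 879.83 TPM in WT, a ratio of 1.05. Ech1, a dienoyl-CoA isomerase found in both organelles, was at 344.41 TPM in KO against 303.25 TPM in WT, a change of 0.18 (interval 0.15 to 0.26). Acad11, an acyl-CoA dehydrogenase, was the lowest of the group, at 196.44 TPM in KO against 206.53 TPM in WT, a change of -0.07 (interval -0.10 to -0.02). Pex11a, a factor of peroxisome division, was at 43.30 TPM in KO against 42.01 TPM in WT, and its interval held 0.

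**Figure D3:**
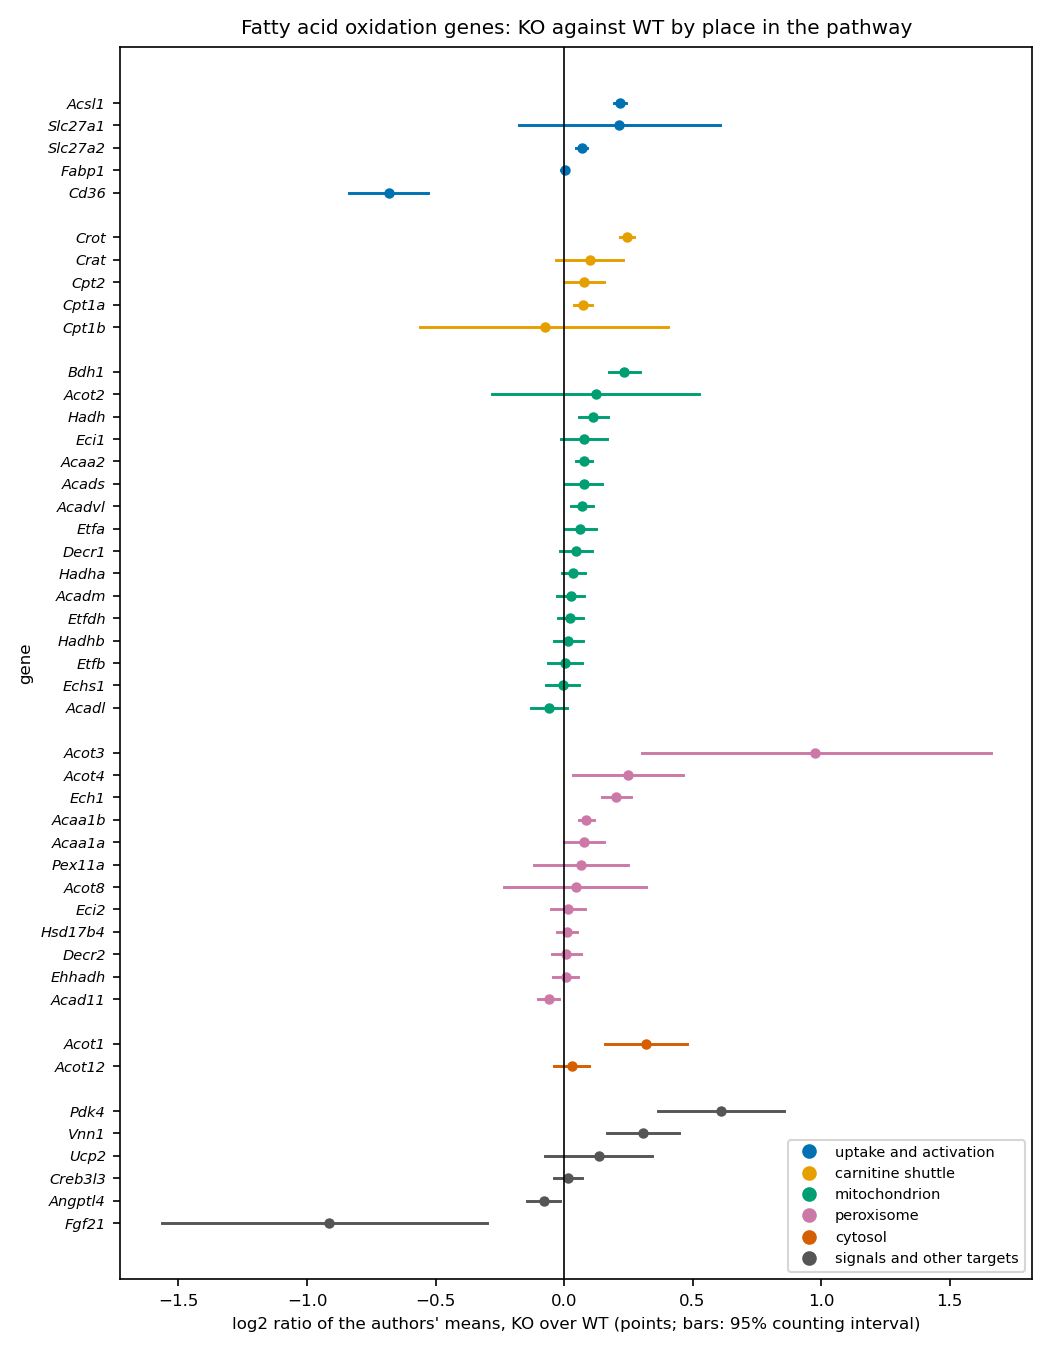
Log2 ratio of the authors' means, KO over WT (horizontal axis), for each of the 46 genes (rows), grouped and colored by place in the pathway. Points are ratios and bars are 95% counting intervals, which do not cover differences between mice. In each group most points lie near 0, and the widest bars belong to genes with few reads, such as Acot3 (0.30 to 1.66) and Fgf21 (-1.56 to -0.30).

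Of the 46 genes 6 encode acyl-CoA thioesterases, which split acyl-CoA into free fatty acid and coenzyme A. All 6 were higher in KO, from 0.02 (Acot12) to 0.48 (Acot3), beside 45.8% of all genes. The thioesterase genes outside the 46 that averaged 1 TPM or more differed in direction, with Acot7 at -0.19 (13.30 TPM in KO against 15.32 TPM in WT), Acot9 at -0.02 and Acot13 at 0.03, and their intervals held 0. Among the 6 member genes, Acot1 to Acot4 lie side by side on chromosome 12, within 83987861 to 84060400, and their products work in different compartments. Acot1, the cytosolic long-chain enzyme, was at 31.73 TPM in KO against 25.72 TPM in WT, a change of 0.29 (interval 0.16 to 0.48, from 620 and 671 reads). Acot4, peroxisomal and active on succinyl-CoA, was at 11.39 TPM in KO against 9.67 TPM in WT, a change of 0.22 (interval 0.04 to 0.46). Acot3, also peroxisomal, was the highest of the peroxisomal group but rested on 48 reads in KO and 33 in WT, with 1.44 and 0.75 TPM, a change of 0.48 (interval 0.30 to 1.66). Acot2, the mitochondrial enzyme, was at 3.40 and 3.14 TPM and its interval held 0. Because Acot1, Acot2 and Acot3 share between 12.4% and 17.1% of their 100-base windows with other genes, the 4 were also summed, to 47.96 TPM in KO against 39.28 TPM in WT, a ratio of 1.22. The interval of the log2 ratio of their summed means was 0.18 to 0.42. Outside the cluster, Acot8 (peroxisomal, 14.11 and 13.85 TPM) and Acot12 (cytosolic, specific for acetyl-CoA, 75.82 and 74.90 TPM) were near equal, with intervals that held 0. The cytosolic group, Acot1 and Acot12, summed to 107.55 TPM in KO against 100.62 TPM in WT, a ratio of 1.07, and without Acot12 the ratio was 1.23.

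Of the 6 signals and other targets 4 were higher in KO and 2 lower, with changes from -0.73 to 0.50. Pdk4, the kinase that turns off pyruvate dehydrogenase when fat is burned (chromosome 6, 5483351 to 5496278), was at 6.43 TPM in KO against 4.26 TPM in WT, a change of 0.50 (interval 0.36 to 0.85, from 297 and 263 reads). It was the highest of the 46 genes on this scale, at 1.41-fold. With a pseudocount of 0.1 TPM Acot3 stood higher, at 0.86 against 0.58 for Pdk4, and with the means of the second table at 0.95 against 0.61. Fgf21, the hormone secreted by liver in fasting (chromosome 7, 45613890 to 45615490), was at 2.93 TPM in KO against 5.50 TPM in WT. Its change of -0.73 (interval -1.56 to -0.30, from 31 and 79 reads) was the lowest of the 46 genes, a fold of 0.605. Pdk4 and Fgf21 both respond to fasting and were both low in these libraries. The part of feeding state in either difference was not tested.

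Vnn1, a pantetheinase that recycles the vitamin part of coenzyme A, was at 25.58 TPM in KO against 20.87 TPM in WT, a change of 0.28 (interval 0.17 to 0.45). Angptl4, a secreted inhibitor of lipoprotein lipase, was at 137.27 TPM in KO against 146.46 TPM in WT, a change of -0.09 (interval -0.14 to -0.01). Creb3l3, whose product CREBH acts with PPARα on fasting genes and which was the most abundant of the group, was level at 159.85 and 159.66 TPM (change 0.00, interval -0.04 to 0.07). Ucp2, a mitochondrial carrier, was at 6.31 TPM in KO against 5.80 TPM in WT and its interval held 0. The group summed to 338 TPM in KO against 343 TPM in WT, a ratio of 0.988.

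**Figure D4:**
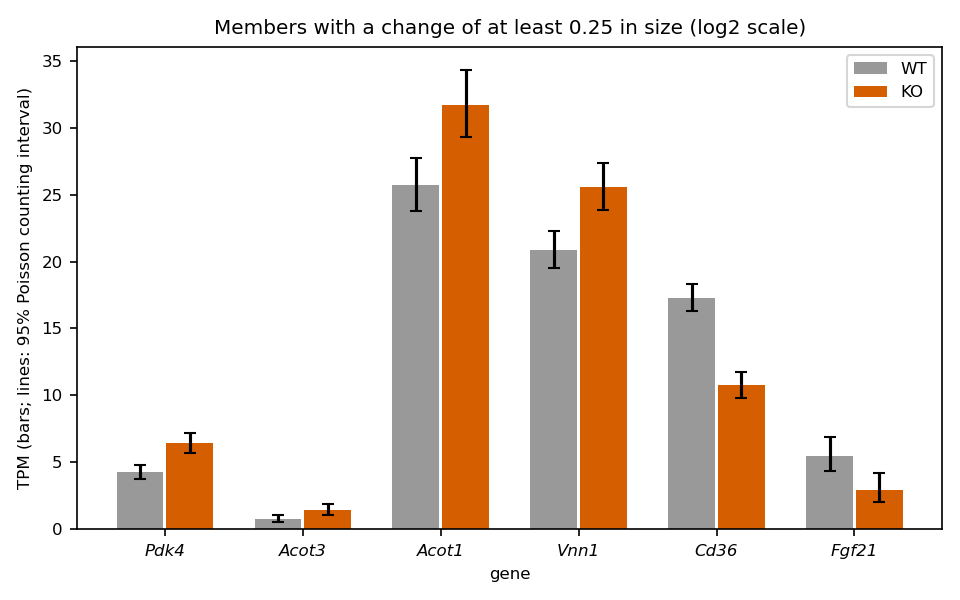
TPM (vertical axis from 0) of the 6 members with a change of at least 0.25 in size, in the WT library (gray bars) and the KO library (orange bars). Lines on the bars are 95% Poisson counting intervals of the single library and do not cover differences between mice. KO bars are higher for Pdk4, Acot3, Acot1 and Vnn1 and lower for Cd36 (10.74 against 17.28 TPM) and Fgf21 (2.93 against 5.50 TPM).

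The median change was 0.06 for uptake and activation, 0.06 for the carnitine shuttle, 0.04 for mitochondria, 0.03 for peroxisomes, 0.16 for the cytosolic pair and 0.05 for signals and other targets. Single genes ran from -0.07 to 0.22 in mitochondria and from -0.07 to 0.48 in peroxisomes. With a minimum of 10 TPM the median of signals and other targets was 0.0017, over 3 genes. No test between compartments was possible with 1 library per genotype.

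Other genes of the pathway, listed from general knowledge, were spread around 0. Of 31 other β-oxidation genes averaging 1 TPM or more, 16 were higher in KO and none passed either fold threshold, with a median change of 0.00, from -0.29 (Acsl3) to 0.19 (Amacr). Among them Slc25a20, the carrier that brings acylcarnitine into the matrix, was at 89.28 and 89.02 TPM, a change of 0.00. Of 6 other ketone body genes 5 were higher, from -0.14 (Oxct1) to 0.10 (Acat1). The 18 genes of peroxisome biogenesis and content had a median of -0.01, and the lowest was Pex11g at -0.25.

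Ppara itself was at 95.78 TPM in KO against 99.15 TPM in WT, a change of -0.05. The 16 PPAR and cofactor genes had a median of -0.02, from -0.82 (Lpin1, a phosphatidate phosphatase that also acts as a coactivator, 173 TPM in KO against 307.53 TPM in WT) to 0.27 (Ppard). Of the 24 other PPARα targets 14 were higher in KO, with a median of 0.02, from -0.58 (Scd1, the stearoyl-CoA desaturase) to 0.72 (Cyp4a10). Plin2, a lipid droplet coat protein, was at 284.95 TPM in KO against 306.18 TPM in WT, a change of -0.10, and its relatives Plin4 and Plin5 changed by -0.44 and -0.36, with intervals below 0. The Cyp4a genes encode ω-hydroxylases of fatty acids, and Cyp4a10 (189.06 TPM in KO against 114.47 TPM in WT) and Cyp4a14 (103.60 and 65.20 TPM) were the 2 genes of this list at or above 1.4-fold. None of the 46 genes had an upward change as large as that of Cyp4a10 (0.72) or of Cyp4a14 (0.66) on this scale. As a log2 ratio of the authors' means, without a pseudocount, Acot3 (0.98) exceeded Cyp4a10 (0.74) and Cyp4a14 (0.68), with an interval of 0.30 to 1.66 that held both.

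**Figure D5:**
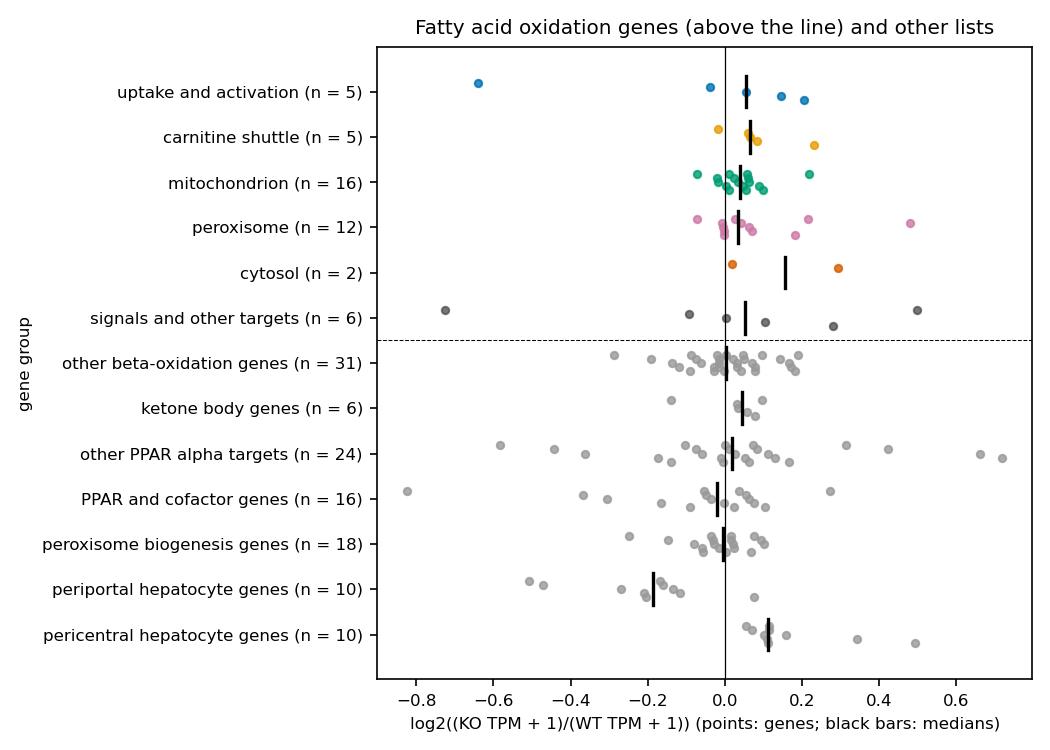
Change on the log2 scale (horizontal axis, log2((KO TPM + 1)/(WT TPM + 1))) of each gene averaging 1 TPM or more (points), for the 6 groups of fatty acid oxidation genes (colored, above the dashed line) and for other lists (gray), with black bars at the medians. The medians of the 6 groups lie between 0.03 and 0.16, those of the other pathway lists between -0.02 and 0.05, that of periportal genes at -0.19 and that of pericentral genes at 0.11.

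Enzymes of fatty acid oxidation are not spread evenly over the liver lobule, so genes of its zones were read beside them. Of 10 periportal hepatocyte genes 9 were lower in KO, with a median of -0.19, from -0.51 (Sds) to 0.08 (Ctsc), and their summed level was 6697 TPM in KO against 7670.3 TPM in WT. All 10 of 10 pericentral genes were higher in KO, with a median of 0.11, from 0.05 (Gulo) to 0.49 (Rhbg), and a summed level of 6891 TPM in KO against 6296 TPM in WT. General hepatocyte markers had a median of -0.04, with 4 of 10 higher, from -0.28 (Tat) to 0.09 (Fgb). Kupffer cell markers ran from 0.10 (Vsig4) to 0.32 (Cd163), stellate cell markers from -0.53 (Rgs5) to 0.17 (Lrat), endothelial markers from -0.60 (Lyve1) to -0.01 (Stab1), and cholangiocyte markers from -0.59 (Epcam) to 0.01 (Krt19). The part of these genes' zones or cell types in the changes of the 46 genes was not tested.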

How the data were processed

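Per the labels and the study's methods, stranded total RNA libraries were sequenced as paired reads of 100 bases, converted with CASAVA 1.8.2 and aligned to mm10 with RSEM 1.2.09, which uses Bowtie. The authors deposited posterior mean TPM per gene. A second deposited table, from EBSeq, holds a mean signal per library (its estimated reads over a size factor) for 16318 genes. Its columns C1 and C2 were read as KO and WT from the order in the name of the comparison. Its 4 columns of the authors' own comparison (posterior probabilities and fold changes) were not used. The value of 1 read was taken as the most frequent mean (1.16 in KO, 0.860 in WT). Within 0.02, 78.4% of KO and 75.0% of WT values were whole reads, so no count test was run. The counting intervals use the same values rounded to whole reads and are approximate for that reason.

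From TPM, log2((KO + 1)/(WT + 1)) was computed for all genes and described for genes averaging 1 TPM or more, with fold thresholds of 1.4 and 0.6. Intervals (Clopper-Pearson for ratios, Poisson for levels, 95%) cover counting error only. Coordinates and promoter windows are RefSeq on GRCm38.p6, the mm10 assembly. Windows of 100 bases shared between genes were counted in GENCODE vM21 transcripts. Members given in full have a change of at least 0.25 in size, or are the highest, lowest or most abundant of their group, with copies also summed; others were added for their role. Values of some genes outside the members are not reported here. The members and lists were chosen with earlier results of these data known, and groups were written from textbook location. Alternatives were another pseudocount, the means of the second table, centring, rescaling, other filters and fold thresholds, moved group membership and sums over copies. A planned search for peroxisomal C-terminal signals in the proteins was not run. The calls and intervals were tried on simulated libraries with counting error only. Changes past both fold thresholds were planted in genes averaging 10 TPM or more. These libraries hold no spread between mice and no planted change in genes as low as Pdk4. They cannot show how reliable the calls are in these data. Python 3.11.15 was used with scipy 1.17.1, numpy 2.4.6, matplotlib 3.10.9 and pandas 2.3.3.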

Additional observations from a re-analysis of the deposited data

How the results depend on the processing

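With 1 pooled library per genotype, no setting can show whether a difference would recur in other mice, and single low genes are limited by depth: Acot3 rested on 48 and 33 estimated reads and Fgf21 on 31 and 79. The number of members at or above the upper fold was 1 as reported. It was 2 (Pdk4 and Acot3) with a pseudocount of 0.1 TPM, with the means of the second table and after centring on the median of all genes, 0 at a minimum of 10 TPM, which leaves Pdk4 out, 0 with folds of 2 and 0.5, and 4 with folds of 1.2 and 1/1.2. Of all 11623 genes, 141 were at or above the upper fold as reported, 280 with the smaller pseudocount and 149 after centring. With folds of 2 and 0.5 there were 45 such genes, and with folds of 1.2 and 1/1.2 there were 627. With the means there were 296 of 11543, and at a minimum of 10 TPM 62 of 6235. The number of members at or below the lower fold was 0 as reported. It was 1 (Fgf21) with a pseudocount of 0.1 TPM and with the means of the second table, and 2 (Fgf21 and Cd36) with the mirrored fold of 1/1.4 or that of 1/1.2. Of all 11623 genes, 35 were at or below the lower fold as reported and 70 with a pseudocount of 0.1 TPM. There were 118 with the mirrored fold of 1/1.4, 640 with that of 1/1.2, and 80 of 11543 with the means. The median change of the 46 genes stayed between 0.04 and 0.07 in every setting run. That of uptake and activation was 0.0087 at a minimum of 10 TPM, which leaves Slc27a1 out, and that of signals and other targets 0.0017, over 3 genes. The log2 ratio of summed TPM for uptake and activation was -0.03 as reported, 0.10 without Fabp1 and 0.058 with the means of the second table. For the carnitine shuttle it fell from 0.17 to 0.063 without Crot, for mitochondria it was 0.04 as reported and 0.057 with the means, and for the cytosolic pair it was 0.10 as reported and 0.30 without Acot12. Counts of members above 0, a result added after seeing the data, were 28 of 39 to 39 of 46. The count of 28 of 39 (71.8%) came at a minimum of 10 TPM, where 42.1% of all genes were above 0. The count of 39 of 46 (84.8%) came with the means of the second table, where 49.1% of all genes were above 0. As reported, 45.8% of all genes were above 0, so the share of all genes also moved with the setting. Of 190 values of single members under alternatives 189 stayed within the counting error of the reported value, and the exception was Fabp1 with the means. That margin is set by each gene's own interval and is wide for low genes. Acot3 counted as within it on moving from 0.48 to 0.95 with the means. Centring and rescaling shift all genes nearly alike and by little, so much of this count was fixed in advance. Only 1 member, Pdk4, was past a fold threshold as reported, so that it kept its sign says little. The sign changed for 6 members within 0.04 of no change (Fabp1, Etfb, Ehhadh, Hsd17b4, Decr2 and Eci2). No paired analysis was possible because KO and WT are single pools. For the same reason no replicate could be left out.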
